A study of Oryza sativa with 40 samples.

Results

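Rice leaves that stayed at their growth temperature were compared at 0 h and 2 h of a temperature-shift experiment, which asks how expression changed with the hour of day in plants that were not shifted. The comparison used 8 of the 40 libraries of the series, 4 at each hour, and all 19308 genes of the deposited table. Plants were Oryza sativa cultivar IR64, an indica rice, kept at 30/25 °C (day/night, called warm) in hydroponic tanks under natural sunlight in a glasshouse. Both groups carried no treatment, genotype change or added agent. Total RNA, depleted of ribosomal RNA, was sequenced. Tissue was the middle leaf section, about 8 cm, of leaves that were already expanded before other tanks were moved to hot or cold rooms. That move took place 3 h into the day, so the 0 h leaves stood for 3 h and the 2 h leaves for 5 h after the start of the day. Warm leaves of 6 h (9 h into the day) and of 24 h, when the hour of day was that of the 0 h harvest, are given beside some results. The labels do not say which plant or tank gave which library. The p-values therefore measure the spread between libraries of a group, pooled over all 40 libraries of the series, which may in part be technical.

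Plants keep time with a circadian clock built from transcription factors that repress each other in turn. Morning factors of the LHY type give way to pseudo-response regulators (PRR) through the day, and an evening complex of ELF3, ELF4 and LUX acts around dusk. In leaves the clock and light together set the daily timing of photosynthesis, nitrate use, starch turnover and water transport genes. These roles are known mostly from Arabidopsis.

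Reads assigned to genes ran from 3609271 to 7850832 in the 8 libraries, and 3 reads corresponded to 0.377 to 0.896 reads per 1e6 of the scaled library size (CPM). The value 0.5 is added to every read count in the deposited table, so genes with 0 reads show small CPM values that are offsets and not signal. Warm 0 h replicate 1 stood apart: it correlated with its group mates at a mean r of 0.8597, against 0.9223 to 0.9286 for those mates and 0.9476 to 0.9579 among the 2 h libraries. In this library 2365 genes lay more than 2 log2 units from the mean of its mates, against 279 to 656 in the other 7. Values without it are given beside results that it moved most. Replicates 1 to 3 of both hours ran on sequencing lane 1 and replicate 4 of both on lane 2, so lane was balanced between the hours. The deposited scaling multiplied library sizes by 0.761 to 0.897 at 0 h and by 0.906 to 1.08 at 2 h, ranges that do not overlap.

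From 3 h to 5 h into the day, 2437 genes rose and 1870 fell, together 22.3% of the genes tested (12.6% higher and 9.69% lower). The test was limma's moderated test with 4 libraries per group, and a gene passed when its p-value, adjusted over the 19308 genes by Benjamini-Hochberg, was under 0.05. Of these calls, 2461 (12.7% of all genes) were at least 2-fold, with 1552 higher (8.04%) and 909 lower (4.71%), and 468 rises and 197 falls were at least 4-fold. In 3948 genes (20.4%) the 4 libraries of one hour did not overlap with the 4 of the other (2139 higher, 11.1%, and 1809 lower, 9.37%), and 3148 of the called genes were among them. The median change over all genes was 0.05 on the log2 scale. When libraries were scaled by their total reads instead, an alternative chosen after seeing the data, that median was 0.25, with 3265 genes higher and 961 lower, so that 77.3% of calls were rises against 56.6% here. Without warm 0 h replicate 1, 1869 genes were higher and 1424 lower, and in a fit of the 8 libraries alone 957 and 856. In bulk leaf samples fewer cells of a type and less RNA per cell cannot be told apart.

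Falls were more frequent among genes with many reads. Of 545 genes with a mean log2 CPM of at least 8 over the 8 libraries, 132 (24.2%) fell and 71 (13%) rose. Of 5244 genes between 2 and 4, 395 (7.53%) fell and 794 (15.1%) rose. These levels are not corrected for gene length. Across the 12 chromosomes the share that rose lay between 11.1% (chromosome 5) and 13.9% (chromosome 4), and the share that fell between 7.24% (chromosome 9) and 10.7% (chromosome 3). Of 949 genes annotated as transposable elements, 89 (9.38%) rose and 36 (3.79%) fell.

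**Figure D1:**
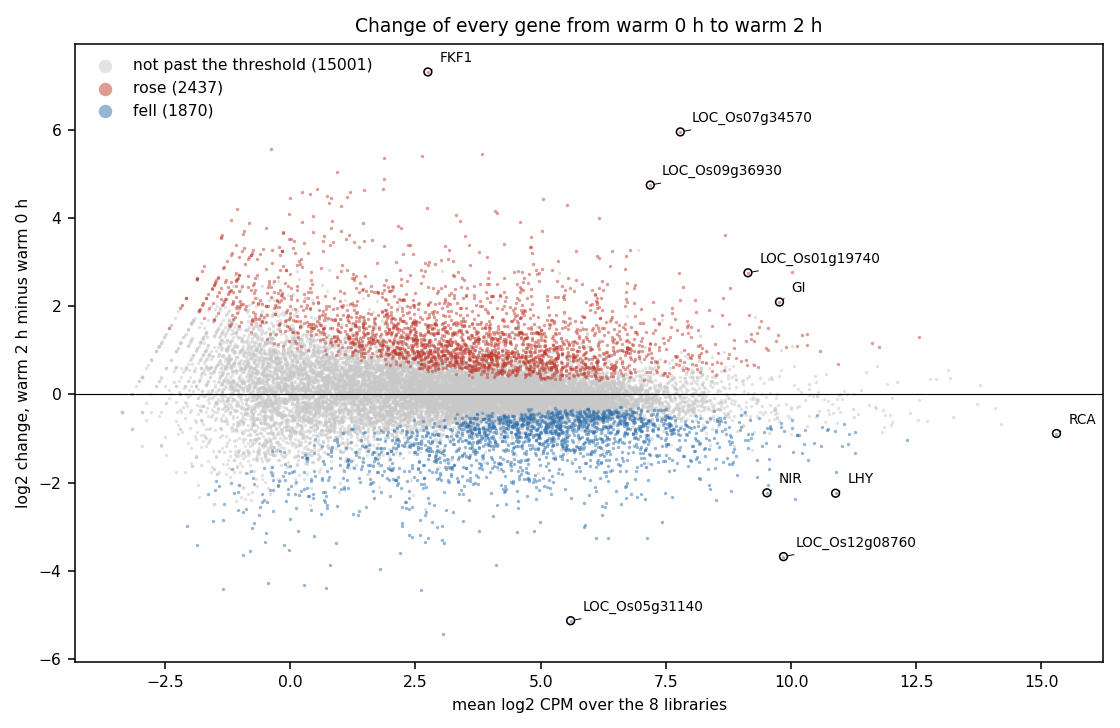
Log2 change from warm 0 h to warm 2 h (vertical axis, fitted, n = 4 libraries per hour) against mean log2 CPM over the 8 libraries (horizontal axis), 1 point per gene. The 2437 genes that rose are red, the 1870 that fell are blue and the rest grey, and ringed points are genes described in the text.

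Of 14 clock genes measured, 7 rose (50%, beside 12.6% of all genes) and 2 fell (14.3%, beside 9.69%), with a median change of 0.88 beside 0.05 over all genes. The same counts, 7 and 2, were found without warm 0 h replicate 1, with libraries scaled by total reads and with libraries shifted to one median, and 5 and 2 in a fit of the 8 libraries alone. With any 1 library left out, 6 or 7 rose and 2 fell.

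Among morning genes, LHY (LOC_Os08g06110, annotated as a MYB family transcription factor, chromosome 8, 3365730 to 3373434) fell. LHY encodes a repressor that peaks around dawn and sits at the core of the clock. Its values at 0 h were 5481, 3376, 4343 and 3572 CPM in replicates 1 to 4, the order used throughout, and at 2 h 726, 1021, 876 and 883 CPM. Every 2 h library lay below every 0 h library, and the log2 change was -2.24 ± 0.22 (SE, adjusted p = 4.63e-09). At 6 h the geometric mean was 142 CPM and at 24 h 2965 CPM.

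The pseudo-response regulators, a family of repressors that follow one another through the day, were split. PRR73 (LOC_Os03g17570) read 942, 1303, 1417 and 1433 CPM at 0 h and 1109, 1411, 1614 and 1414 CPM at 2 h, and its change of 0.13 ± 0.17 (SE, adjusted p = 0.633) did not pass. PRR37 (LOC_Os07g49460) read 358, 609, 601 and 572 CPM at 0 h and 675, 829, 798 and 957 CPM at 2 h. Its groups did not overlap and it rose by 0.63 ± 0.19 (SE, adjusted p = 0.0129), a call that was lost without warm 0 h replicate 1 (adjusted p = 0.0943) and without warm 2 h replicate 4 (0.0516).

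The other 3 regulators rose further. PRR95 (LOC_Os09g36220, chromosome 9, 20885172 to 20889843) went from 102, 221, 257 and 231 CPM to 795, 1395, 862 and 1083 CPM, a change of 2.40 ± 0.33 (SE, adjusted p = 1.56e-06). PRR59 (LOC_Os11g05930, chromosome 11, 2789002 to 2793735) went from 64.3, 22.9, 29 and 30.4 CPM to 118, 168, 140.1 and 153 CPM, a change of 2.09 ± 0.40 (SE, adjusted p = 0.000186). In both genes all 2 h libraries lay above all 0 h libraries, and warm 0 h replicate 1 was the lowest for PRR95 and the highest of the 0 h libraries for PRR59. PRR1 (LOC_Os02g40510, chromosome 2, 24569294 to 24572560), the rice relative of the evening repressor TOC1, read 1.75, 24.2, 33.6 and 27.6 CPM at 0 h and 109, 88.3, 78.3 and 128 CPM at 2 h. The groups did not overlap, and the change was 2.81 ± 0.58 (SE, adjusted p = 0.000509). Much of its size came from replicate 1: without it the change was 1.81 (adjusted p = 0.00467).

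GI (LOC_Os01g08700, annotated as GIGANTEA, chromosome 1, 4329152 to 4338485), a large plant protein that stabilises clock F-box proteins, also rose. It read 218, 614, 505 and 477 CPM at 0 h and 1939, 1775, 1431 and 2173 CPM at 2 h, with no overlap and a change of 2.09 ± 0.26 (SE, adjusted p = 2.47e-07). FKF1 (LOC_Os11g34460, annotated as OsFBO10, chromosome 11, 20182477 to 20187327), a blue-light receptor with an F-box that works with GI in Arabidopsis, had the largest rise of all genes named here. Its 0 h libraries held 1 to 3 reads each (0.583, 0.499, 0.808 and 0.344 CPM) and its 2 h libraries 216 to 779 (64.2, 112, 64.6 and 109.6 CPM). FKF1 was thus at or below 3 reads in each 0 h library and well above them in each 2 h library. The fitted change was 7.31 ± 0.66 (SE, adjusted p = 8.57e-10), and 5.89 on the log2(CPM + 1) scale, since the size depends on the offset.

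LUX and ELF3-1, both of the evening complex, moved in opposite directions. LUX (LOC_Os01g74020, a MYB family factor, chromosome 1, 42874207 to 42875515) held 0 to 1 reads at 0 h and 8 to 11 at 2 h, and its change was 3.17 ± 0.62 (SE, adjusted p = 0.000288) as deposited and 1.29 on the log2(CPM + 1) scale. ELF3-1 (LOC_Os06g05060) read 212, 147, 153 and 158 CPM at 0 h and 85.2, 119, 111 and 106 CPM at 2 h, without overlap, and fell by 0.66 ± 0.14 (SE, adjusted p = 0.000857) on the log2 scale. ELF3-2 (LOC_Os01g38530, 1.12) and ELF4A (LOC_Os11g40610, 0.19) did not pass, nor did the F-box genes ZTL1 (LOC_Os06g47890, -0.09) and ZTL2 (LOC_Os02g05700, -0.25). A gene annotated as circadian clock coupling factor ZGT (LOC_Os05g41490), chosen after its values were seen, read 5.48, 0.0998, 0.808 and 0.115 CPM at 0 h and 1.95, 10.2, 11.8 and 7.38 CPM at 2 h. Its groups overlapped through warm 0 h replicate 1, and it rose by 3.76 ± 0.97 (SE, adjusted p = 0.00433), or by 2.07 on the log2(CPM + 1) scale.

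**Figure D2:**
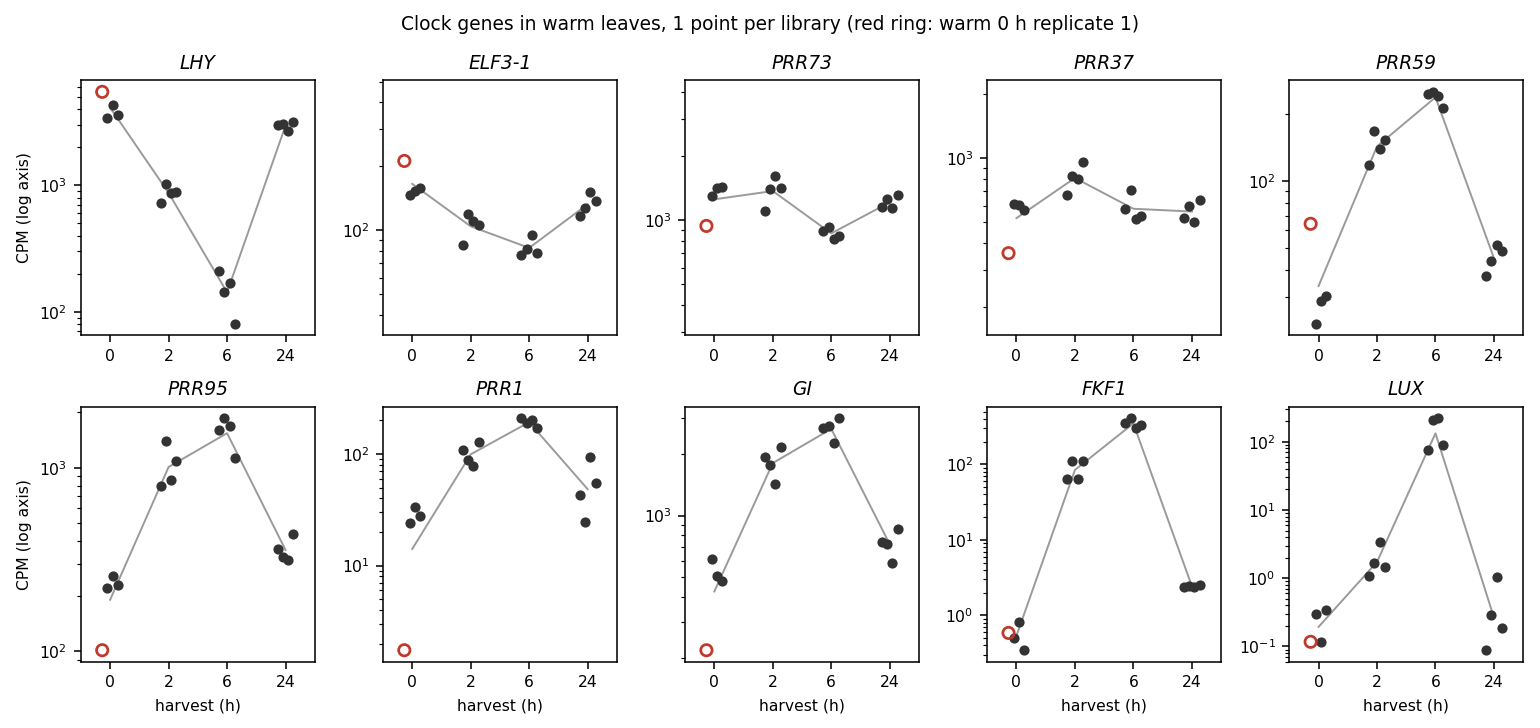
CPM of 10 clock genes in each warm library at 0, 2, 6 and 24 h (log axis), with a grey line through the geometric means of 4 libraries and a red ring around warm 0 h replicate 1. LHY and ELF3-1 were lower at 2 h than at 0 h, 7 genes were higher, and PRR73 did not pass the test.

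Later warm libraries show where these 2 h levels stood in the day. From 2 h to 6 h, 3777 genes were called (19.6%), 1745 higher (9.04%) and 2032 lower (10.5%). From 2 h to 24 h, 1485 were called (7.69%), 630 higher (3.26%) and 855 lower (4.43%). Between 24 h and 0 h, the same hour on successive days, 564 were called (2.92%), 306 higher at 24 h (1.58%) and 258 lower (1.34%). These comparisons share libraries with the one described here, so their values are only set side by side. Geometric means at 0, 2, 6 and 24 h were 424, 1809, 2660 and 722 CPM for GI and 191, 1009, 1541 and 357 CPM for PRR95. For FKF1 they were 0.533, 84.5, 349 and 2.43 CPM. LUX stood at 0.193, 1.73, 133 and 0.264 CPM. In these 4 genes the 6 h mean was the highest of the warm means, and in LHY it was the lowest. None of the 10 clock genes plotted passed between 24 h and 0 h, and the smallest adjusted p was that of FKF1 (0.0592 by limma). Some of the 8 largest rises and 8 largest falls, described below, did pass. Higher at 24 h than at 0 h were LOC_Os09g36930 (log2 change 2.25), LOC_Os03g55090 (2.37), LOC_Os08g33720 (2.65), LOC_Os08g25624 (2.3) and LOC_Os09g15810 (1.67). Lower were LOC_Os10g18370 (-2.63), LOC_Os05g31140 (-2.95), DEFL9 (LOC_Os06g22919, -4.82) and LOC_Os01g12280 (-2.41). The others of these rises and falls did not pass.

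Photoperiod and light-signalling genes moved in both directions. Of 39 flowering-time regulators, which include B-box and CCT-domain transcription factors, 7 rose and 9 fell (median -0.04), against 12.6% and 9.69% of all genes. A B-box gene, LOC_Os01g10580 (chromosome 1, 5639769 to 5641495), held 1 to 4 reads per library at 0 h (0.583, 0.299, 1.04 and 0.574 CPM) and 95 to 190 at 2 h (21.6, 30.1, 28.5 and 16.2 CPM). It was near the 3-read level in every 0 h library, with no overlap, and its change was 5.37 ± 0.30 (SE, adjusted p = 5.98e-15), or 4.03 on the log2(CPM + 1) scale. The CCT and B-box genes LOC_Os08g42440 (2.33) and LOC_Os09g33550 (2.47) rose as well, the second from 0 to 1 reads at 0 h to 3 to 9 reads at 2 h. Of 9 that fell, the largest changes were in the B-box genes LOC_Os09g35880 (-1.55), LOC_Os02g07930 (-1.47) and LOC_Os02g39360 (-1.44). Without warm 0 h replicate 1 the list counted 6 rises and 7 falls.

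Of 6 photoreceptor genes, 2 fell (33.3%, beside 9.69% of all genes) and none rose (beside 12.6%). The cryptochromes, blue-light receptors, were those 2. CRY1B (LOC_Os04g37920) read 347, 230.2, 266 and 244 CPM at 0 h and 136, 191, 108 and 161 CPM at 2 h, without overlap, and changed by -0.88 ± 0.17 (SE, adjusted p = 0.000326). CRY1A (LOC_Os02g36380) read 274, 214, 189.5 and 214 CPM and 133, 166, 152 and 139 CPM, again without overlap. It changed by -0.59 ± 0.14 (SE, adjusted p = 0.00276), a call lost when libraries were scaled by total reads (-0.40, adjusted p = 0.0837). CRY2 (LOC_Os02g41550) and the phytochromes PHYA (LOC_Os03g51030), PHYB (LOC_Os03g19590) and PHYC (LOC_Os03g54084) did not pass, with fitted changes of -0.24, -0.28, -0.20 and -0.33.

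Of 41 light harvesting and photosystem genes, 9 fell (22%, beside 9.69% of all genes) and 2 rose (4.88%, beside 12.6%), with a median of -0.42. The falls depended on single libraries: 5 were left without warm 0 h replicate 2, 3 without warm 0 h replicate 4 and none without warm 2 h replicate 1. A photosystem I subunit, LOC_Os07g05480, read 1618, 2347, 1964 and 2997 CPM at 0 h and 326, 1127, 1171 and 842 CPM at 2 h, without overlap, and changed by -1.49 ± 0.40 (SE, adjusted p = 0.00646), or by -1.07 without warm 2 h replicate 1 (adjusted p = 0.0593). A photosystem II polypeptide, LOC_Os07g05365, read 129, 8.68, 10.7 and 6.31 CPM and 0.692, 4.51, 4.03 and 0.773 CPM and changed by -3.23 ± 1.05 (SE, adjusted p = 0.0232), or by -2.25 without warm 0 h replicate 1 (adjusted p = 0.16), and its call was also lost without warm 2 h replicate 1 or 4. Other falls were in the photosystem I subunit LOC_Os12g08770 (-1.12) and the photosystem II subunit LOC_Os01g56680 (-1.34). Those that rose were a ferredoxin-NADP reductase, LOC_Os06g01850 (1.36), which passes electrons to NADP, and LOC_Os07g01480 (1.55), with an oxygen evolving enhancer domain. Scaled by total reads, 8 fell and 3 rose. In a fit of the 8 libraries alone, 1 fell and 1 rose. None of 18 mesophyll markers, the chlorophyll a/b binding proteins and Rubisco small chains that define green leaf tissue, passed in either direction, while RCA, a further marker of this tissue, is described with the carbon-fixing genes. Their summed CPM was high in every library and overlapped between the hours, from 42009 to 123949 at 0 h and from 45331 to 111720 at 2 h.

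Of 40 Calvin-Benson cycle genes, the carbon-fixing cycle of the chloroplast, 10 fell (25%, beside 9.69% of all genes) and 2 rose (5%, beside 12.6%). Their median was -0.15, and 0.05 when scaled by total reads, beside 0.25 for all genes on that scale. With 1 library left out 5 to 8 fell, 5 without warm 2 h replicate 1 and 6 without warm 0 h replicate 2, and in a fit of the 8 libraries alone 2 fell and 2 rose. CP12 (LOC_Os01g19740, chromosome 1, 11202595 to 11203335), a small protein that holds cycle enzymes inactive in the dark, rose from 76.6, 335, 317 and 269 CPM to 1175, 1698, 1534 and 1488 CPM. The groups did not overlap, replicate 1 was the lowest library, and the change was 2.75 ± 0.33 (SE, adjusted p = 1.38e-07), or 2.26 without that replicate. A gene annotated as a transketolase, LOC_Os09g33500, rose by 1.11 ± 0.16 (SE, adjusted p = 3.14e-06). It was placed in this list by its product name alone, and its part in the cycle was not checked. The list held 4 other genes annotated as transketolases that fell, among them LOC_Os06g04270 (-0.90). A ribose-5-phosphate isomerase, LOC_Os04g24140, read 191, 29.2, 40.8 and 32.5 CPM at 0 h and 12.3, 16.2, 13.6 and 14.1 CPM at 2 h. All 2 h libraries lay lower, and the change was -1.90 ± 0.39 (SE, adjusted p = 0.000504), or -1.27 without replicate 1, which was the highest.

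Rubisco activase, RCA (LOC_Os11g47970, chromosome 11, 28934294 to 28936340, with the product name of an AAA-type ATPase), frees Rubisco from inhibitory sugar phosphates and took more reads than any other gene in all 8 libraries. It read 41110, 58930, 58440 and 64160 CPM at 0 h and 23390, 33660, 33450 and 29310 CPM at 2 h, and each 2 h library lay below each 0 h library. The change was -0.89 ± 0.31 (SE, adjusted p = 0.0336). This call was lost in 11 of 21 alternative fits, among them a fit of the 8 libraries alone and those without warm 0 h replicate 2, 3 or 4 or warm 2 h replicate 1 or 4, with adjusted p between 0.0189 and 1.0 over the 21. At 6 h the geometric mean was 5134 CPM and at 24 h 52830 CPM.

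Pigment genes held 4 rises (18.2%, beside 12.6% of all genes) and 4 falls (18.2%, beside 9.69%) among 22 genes of chlorophyll and carotenoid synthesis. Uroporphyrinogen decarboxylase (LOC_Os03g21900), an early step of tetrapyrrole synthesis, read 129.8, 300.2, 279.6 and 260.5 CPM at 0 h and 45.8, 69.4, 81.6 and 53.6 CPM at 2 h, without overlap, and fell by 1.92 ± 0.28 (SE, adjusted p = 3.89e-06) on the log2 scale. Lycopene epsilon cyclase (LOC_Os01g39960, -1.23) and chlorophyllide a oxygenase (LOC_Os10g41780, -0.93), which makes chlorophyll b, fell too. Phytoene synthase (LOC_Os09g38320), the entry step of the carotenoid pathway, rose by 1.73 ± 0.32 (SE, adjusted p = 0.000119), as did lycopene beta cyclase (LOC_Os02g09750, 0.99) and zeaxanthin epoxidase (ZEP, LOC_Os04g37619, 1.22). Without warm 0 h replicate 1 the list counted 3 rises and 6 falls, and with total reads 6 rises and 3 falls.

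Of 7 photoprotection genes 2 rose (28.6%, beside 12.6% of all genes) and none fell (beside 9.69%), and these calls were not stable. None rose without warm 0 h replicate 1, without warm 2 h replicate 1, in a fit of the 8 libraries alone or in fits of the 16 warm libraries, 1 rose without warm 2 h replicate 4 and in the 7-library fit, and 4 rose with total reads. PSBS2 (LOC_Os04g59440), of the PsbS type that switches on heat dissipation in photosystem II, read 0.35, 54.6, 40.8 and 52.2 CPM at 0 h and 144, 90.7, 89.1 and 150.5 CPM at 2 h. Replicate 1 held 1 read of it and its mates 40.8 CPM or more, and the hours did not overlap. The change was 3.02 ± 0.95 (SE, adjusted p = 0.0201), and 1.24 without that library (adjusted p = 0.224), and without warm 2 h replicate 1 the adjusted p was 0.0505. An early light-induced protein gene, LOC_Os07g08160, read 0.583, 149.8, 132 and 137 CPM and 606, 141, 207 and 521 CPM. Its groups overlapped, and the change was 3.13 ± 1.07 (SE, adjusted p = 0.0312) with all libraries and 1.15 without replicate 1 (adjusted p = 0.335), and the call was also lost without warm 2 h replicate 1 or 4.

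Photorespiration recycles the product of oxygen fixation by Rubisco through peroxisomes and mitochondria. Of its 19 genes 5 rose (26.3%, beside 12.6% of all genes) and 3 fell (15.8%, beside 9.69%), with a median of 0.56. The counts were 5 and 3 without warm 0 h replicate 1, with a median of 0.19. Glycine dehydrogenase, a subunit of the mitochondrial glycine cleavage system, rose in both of its called copies. LOC_Os01g51410 went from 2318, 5033, 4379 and 4166 CPM to 11430, 7734, 8722 and 9953 CPM, without overlap, with a change of 1.29 ± 0.30 (SE, adjusted p = 0.00148). The second copy, LOC_Os06g40940, changed by 1.08, and a glycine cleavage H protein, LOC_Os02g07410, by 1.56. A mitochondrial serine hydroxymethyltransferase (LOC_Os03g52840), the partner of that system, fell by 1.05 on the log2 scale. Genes annotated as hydroxyacid oxidase 1, the glycolate oxidase type, were split, with LOC_Os03g57220 (-1.12) and LOC_Os07g05820 (-0.80) lower and LOC_Os07g42440 (1.27) and LOC_Os04g53214 (1.05) higher. Reads of such close copies may be assigned to the wrong member.

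Of 14 genes of nitrogen assimilation 4 fell (28.6%, beside 9.69% of all genes) and 1 rose (7.14%, beside 12.6%), with a median of -0.66. The falls were 2 without warm 0 h replicate 1, which was the highest 0 h library for the nitrate and nitrite reductase genes named here, and 2 without warm 2 h replicate 2 or 3. Nitrite reductase NIR (LOC_Os01g25484, chromosome 1, 14446910 to 14453474), which reduces nitrite to ammonium in the plastid, read 3533, 1024, 1708 and 1037 CPM at 0 h and 424, 269.5, 341 and 337 CPM at 2 h. No libraries overlapped, and the change was -2.23 ± 0.40 (SE, adjusted p = 9.3e-05), or -1.85 without replicate 1 (adjusted p = 0.00122). A further nitrite reductase gene, LOC_Os02g52730, read 346, 90.5, 135 and 113 CPM and 50.1, 22.9, 20.1 and 47.6 CPM, also without overlap, and changed by -2.19 ± 0.41 (SE, adjusted p = 0.000176). Nitrate reductase NIA2 (LOC_Os08g36480), the step before, read 2079, 649, 1088 and 871 CPM and 645, 507, 329 and 568 CPM. Its groups were next to each other without overlap, and it changed by -1.10 ± 0.40 (SE, adjusted p = 0.0475), and by -0.77 without replicate 1 (adjusted p = 0.224). The call was lost without any 1 of the libraries other than warm 0 h replicates 2 and 4. A second nitrate reductase, NIA1 (LOC_Os02g53130), spread from 28.2 to 475.6 CPM at 0 h and from 36.9 to 147.3 CPM at 2 h, and its change of -0.69 ± 1.08 (SE, adjusted p = 0.701) did not pass. NADH-GOGAT1 (LOC_Os01g48960, -0.92) fell, and an asparagine synthetase (LOC_Os06g15420, 0.89) rose. Plastid glutamine synthetase GS2 (LOC_Os04g56400, -0.52) and Fd-GOGAT (LOC_Os07g46460, -0.14), which build glutamine and glutamate from ammonium, did not pass.

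Starch and sugar genes held rises and falls in similar numbers. Of 52 genes of starch and sucrose metabolism 7 rose (13.5%, beside 12.6% of all genes) and 8 fell (15.4%, beside 9.69%), with a median of 0.03. An alpha-glucan phosphorylase isozyme (LOC_Os03g55090, chromosome 3, 31332396 to 31339163), which splits starch-type glucans with phosphate, was among the 8 largest rises. It read 1.52, 12.9, 8.43 and 15.5 CPM at 0 h and 146, 132, 162 and 177 CPM at 2 h, without overlap, and changed by 4.43 ± 0.41 (SE, adjusted p = 1.28e-09), or 3.69 without replicate 1. Beta-amylases, which release maltose from starch, were divided. LOC_Os07g35880 read 4.78, 44.2, 55.5 and 77.4 CPM at 0 h and 262, 124, 153 and 224 CPM at 2 h and rose by 2.56 ± 0.51 (SE, adjusted p = 0.000318), or by 1.67 without replicate 1. LOC_Os03g22790 read 299, 31.4, 34.5 and 26 CPM and 7.36, 11.5, 11.2 and 10.9 CPM and changed by -2.42 ± 0.65 (SE, adjusted p = 0.00613). Neither gene had overlapping groups, and the second call was lost without replicate 1 (adjusted p = 0.0659). A starch synthase (LOC_Os01g52250, -1.92), an alpha-amylase (LOC_Os01g51754, -1.98) and a sucrose-phosphate synthase (LOC_Os06g43630, -0.84) fell. A sucrose synthase (LOC_Os06g09450, 1.00), a neutral invertase (LOC_Os04g33490, 1.27) and a sucrose transporter (LOC_Os12g44380, 0.94) rose. Without replicate 1 the list counted 6 rises and 4 falls, and with total reads 13 and 5.

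Genes annotated as synthases of trehalose-6-phosphate, a compound that signals sugar status, were divided as well. The trehalose list of 11 held 2 rises (18.2%, beside 12.6% of all genes) and 3 falls (27.3%, beside 9.69%), with a median of -0.38. Without warm 0 h replicate 1 it held 3 rises and 1 fall (median 0.05). LOC_Os03g12360 read 23.7, 22.1, 25.1 and 19.4 CPM at 0 h and 130.1, 83.1, 158 and 98.9 CPM at 2 h, and LOC_Os05g44210 read 10.6, 25.1, 24.6 and 23.5 CPM and 119, 92.3, 93.9 and 106 CPM. Both rose without overlap, by 2.34 ± 0.25 (SE, adjusted p = 1.64e-08) and 2.37 ± 0.35 (SE, adjusted p = 4.32e-06). LOC_Os09g20990 fell by 1.53 on the log2 scale. LOC_Os08g31980 read 15.8, 0.898, 0.808 and 1.72 CPM at 0 h and 0.0629, 0.237, 0.448 and 0.492 CPM at 2 h, with replicate 1 at 0 h far above its mates. Its 2 h libraries held 0 to 3 reads each. The change was -3.14 ± 0.97 (SE, adjusted p = 0.0178), and -1.49 on the log2(CPM + 1) scale, since the size depends on the offset. Without warm 0 h replicate 1 it was -2.17 (adjusted p = 0.128), and the call was also lost without warm 2 h replicate 1. A phosphate translocator, LOC_Os08g25624 (chromosome 8, 15592259 to 15599118), of a family that carries sugar phosphates across the plastid envelope, rose by 4.12 ± 0.54 (SE, adjusted p = 6.39e-07). Its 0 h values were 0.35, 12.1, 8.66 and 8.83 CPM and its 2 h values 86.3, 67.8, 54.2 and 92.9 CPM, and without replicate 1, which held 1 read, the change was 2.92. A lactate/malate dehydrogenase gene, LOC_Os08g33720 (4.16), and a folD-type gene of folate metabolism, LOC_Os09g15810 (4.07), were also among these 8, which were taken from genes with a product name, a mean log2 CPM of at least 2 and no overlap between the hours.

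**Figure D3:**
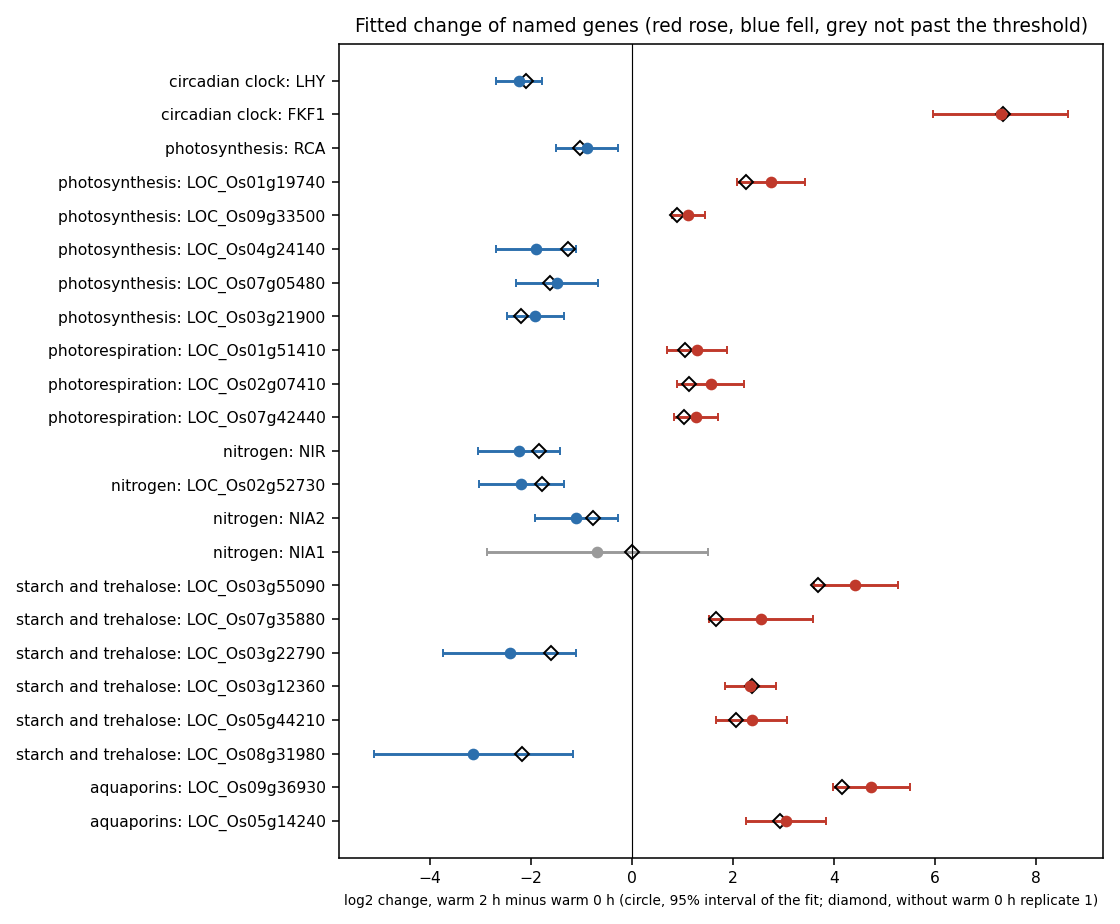
Fitted log2 change from warm 0 h to warm 2 h with its 95% interval for 23 genes of the clock, photosynthesis, photorespiration, nitrogen, starch, trehalose and aquaporin lists (n = 4 libraries per hour), with diamonds for the change without warm 0 h replicate 1. FKF1 had the largest rise (7.31), NIR fell by 2.23, and the interval of NIA1 spans 0.

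Of 22 aquaporins, which let water and small solutes through membranes, 7 rose (31.8%, beside 12.6% of all genes) and 1 fell (4.55%, beside 9.69%). Without warm 0 h replicate 1 or without warm 2 h replicate 1 the rises were 4, and in a fit of the 8 libraries alone 3 rose and 2 fell. The 1 fall was lost without warm 0 h replicate 2, 3 or 4 or warm 2 h replicate 2 or 4. LOC_Os09g36930 (chromosome 9, 21310129 to 21311548) read 8.52, 36.6, 46.3 and 44.4 CPM at 0 h and 643, 671, 1072 and 713 CPM at 2 h. Replicate 1 was the lowest, no libraries overlapped, and the change was 4.74 ± 0.38 (SE, adjusted p = 9.03e-11), or 4.17 without that replicate. LOC_Os05g14240 read 2.22, 3.09, 2.66 and 3.33 CPM and 12.9, 51, 22.5 and 19.5 CPM and rose by 3.05 ± 0.39 (SE, adjusted p = 4.67e-07). LOC_Os01g74450 (1.80) and LOC_Os03g05290 (1.38) rose too, and LOC_Os06g12310 (-0.88) fell.

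Abscisic acid (ABA) is the hormone that closes stomata and builds up under water deficit. Of 13 genes of its synthesis, breakdown and response 7 rose (53.8%, beside 12.6% of all genes) and none fell (median 0.87), with the same counts without warm 0 h replicate 1, 4 and 0 without warm 0 h replicate 4, 8 and 0 with total reads, and 2 and 0 in a fit of the 8 libraries alone. NCED3 and NCED4 encode the enzyme that cuts a carotenoid to make the ABA precursor. NCED4 (LOC_Os07g05940, chromosome 7, 2870686 to 2872832) read 36.3, 0.0998, 0.116 and 0.115 CPM at 0 h and 10.8, 5.14, 21.6 and 13 CPM at 2 h, and replicate 1 at 0 h was above every 2 h library while its mates held 0 reads. The change was 4.58 ± 1.18 (SE, adjusted p = 0.00453) with all libraries and 6.67 without replicate 1 (adjusted p = 1.07e-06), sizes that depend on the offset, and 2.31 on the log2(CPM + 1) scale with all libraries. NCED3 (LOC_Os03g44380) read 80.6, 1.9, 7.51 and 0.344 CPM and 19.7, 28.4, 30 and 11.7 CPM, again with replicate 1 the highest, and changed by 2.24 ± 0.78 (SE, adjusted p = 0.0354). Without replicate 1 the change was 3.63 (adjusted p = 3.01e-05), without warm 0 h replicate 4 it was 1.01 (adjusted p = 0.286), and the call was lost in 11 of 21 alternatives, among them the fits of the 8 libraries, of the 16 warm libraries, and without warm 0 h replicate 2 or warm 2 h replicate 1, 2 or 3. ABA signalling phosphatases rose as well, PP2C30 (LOC_Os03g16170) from 81.8, 2.89, 15.1 and 2.41 CPM to 28.4, 98.8, 77.2 and 41.7 CPM with overlap through replicate 1, by 2.51 ± 0.69 (SE, adjusted p = 0.00789) but not past the threshold without warm 0 h replicate 4 (adjusted p = 0.0551), and PP2C50 (LOC_Os05g46040) by 1.52. So did the dehydrin LIP9 (LOC_Os02g44870, 1.65), the ABA-degrading ABA8OX2 (LOC_Os08g36860, 0.87) and ZEP, while RAB16A (LOC_Os11g26790, -0.78) and SNAC1 (LOC_Os03g60080, -0.70) did not pass. The 4 guard cell markers did not pass with all libraries, 1 fell without replicate 1, and their summed CPM was 67.7 to 92.4 at 0 h and 60.7 to 69.5 at 2 h. Whether the library that stood apart bears on the ABA counts beyond these values was not tested.

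**Figure D4:**
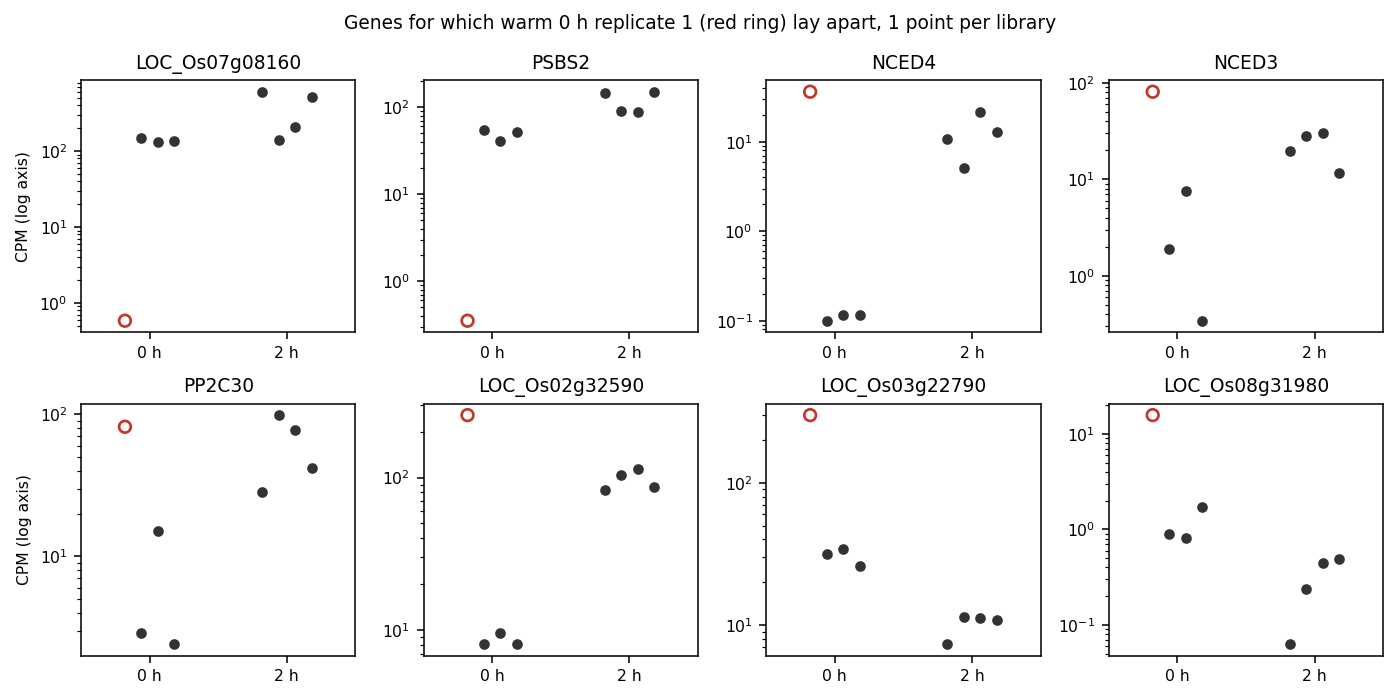
CPM (log axis) in each library at 0 h and 2 h of 8 genes for which warm 0 h replicate 1 (red ring) lay apart from its mates. It was below them for LOC_Os07g08160 and PSBS2 and above them for the other 6, including NCED4 at 36.3 CPM.

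Heat stress genes were measured here without any heat treatment. Most did not pass the test, which also held for all genes, of which 22.3% passed. Of 22 heat stress chaperones 4 fell (18.2%, beside 9.69% of all genes) and 1 rose (4.55%, beside 12.6%). Of 19 small heat shock proteins 2 fell (10.5%), or none without replicate 2 of either hour and 1 without replicate 1 of either hour. HSA32 (LOC_Os06g46900), needed for acquired heat tolerance, read 37.7, 21.1, 10.1 and 8.6 CPM at 0 h and 3.58, 1.66, 4.92 and 2.46 CPM at 2 h and fell by 2.47 ± 0.51 (SE, adjusted p = 0.000489) on the log2 scale. HSP101 (LOC_Os05g44340), which dissolves protein aggregates, changed by -1.35 ± 0.30 (SE, adjusted p = 0.00121), with overlap between the hours. Heat stress transcription factors held 3 rises (15.8%) and 1 fall (5.26%) among 19, or 1 and 4 without warm 0 h replicate 4. LOC_Os03g06630 fell from 378, 499, 249 and 390.3 CPM to 78, 78.1, 146 and 182 CPM, a change of -1.71 ± 0.36 (SE, adjusted p = 0.000607). LOC_Os02g32590 read 257, 8.08, 9.58 and 8.14 CPM and 83.4, 104, 114 and 86.4 CPM, with overlap through replicate 1, a change of 2.26 ± 0.66 (SE, adjusted p = 0.012) that became 3.49 without replicate 1 and lost its call without warm 0 h replicate 2 or 4. Of 113 DnaJ and chaperonin genes 18 rose (15.9%, beside 12.6% of all genes) and 12 fell (10.6%, beside 9.69%). The counts were 11 and 9 without warm 0 h replicate 1. LOC_Os01g42190, with 0 to 16 reads at 0 h, had the largest change (4.50, or 2.53 on the log2(CPM + 1) scale).

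Regulatory genes outside the clock were counted in lists added after values had been seen. Of 111 MYB genes, which include LHY and LUX, 25 fell and 7 rose, against 9.69% and 12.6% of all genes (22.5% and 6.31% of the list). The counts were 18 and 8 without warm 0 h replicate 1, and 13 and 11 with total reads. LOC_Os02g46030, one of the 8 largest falls, read 110, 12.3, 16.1 and 19.8 CPM at 0 h and 1.95, 2.29, 3.13 and 3.3 CPM at 2 h and changed by -3.30 ± 0.58 (SE, adjusted p = 8e-05), or -2.59 without replicate 1. A bHLH gene, LOC_Os12g41650, chosen after its values were seen, read 226, 130, 134 and 183 CPM and 20.3, 25.2, 20.8 and 18.5 CPM. Its groups were far apart, and it fell by 2.96 ± 0.22 (SE, adjusted p = 1.34e-11) on the log2 scale. Among 72 AP2/ERF genes 9 rose (12.5%) and 7 fell (9.72%), and without replicate 1 16 and 7. Of 52 WRKY genes 1 rose (1.92%) and 1 fell (1.92%), or 5 and 1 without warm 0 h replicate 1. No WRKY gene rose without warm 0 h replicate 2, 3 or 4 or warm 2 h replicate 3, and 3 fell without warm 0 h replicate 2. Of 56 NAC genes 4 rose (7.14%) and 2 fell (3.57%), or 7 and 1 without warm 0 h replicate 1, and 4 fell without warm 0 h replicate 2.

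Of 68 auxin response genes 9 rose (13.2%, beside 12.6% of all genes) and 9 fell (13.2%, beside 9.69%). OsIAA11 (LOC_Os03g43400, 2.72, or 1.37 on the log2(CPM + 1) scale), an auxin response repressor with 0 to 3 reads at 0 h, rose. OsGH3.3 (LOC_Os01g12160, -2.57), which conjugates auxin to amino acids, fell. Of 96 cell wall genes 16 rose (16.7%) and 11 fell (11.5%), with 6 falls without warm 0 h replicate 1 and 7 without warm 2 h replicate 1, 2 or 4. A glycosyl hydrolase family 16 gene, LOC_Os06g48200 (chromosome 6, 29156425 to 29157883), read 7.35, 2.29, 1.27 and 1.03 CPM at 0 h and 92.6, 52.8, 205 and 82 CPM at 2 h and rose by 5.46 ± 0.90 (SE, adjusted p = 2.75e-05). The nearby LOC_Os06g48180 of the same family rose by 4.65, and reads of such copies may be shared. A glycosyl hydrolase family 17 gene, LOC_Os05g31140 (chromosome 5, 18106224 to 18110987), read 275, 262, 359.7 and 265 CPM and 3.21, 21, 13.9 and 4.85 CPM and fell by 5.13 ± 0.67 (SE, adjusted p = 6.91e-07) on the log2 scale. The vascular and secondary wall markers, 6 genes with a summed level of 4.62 to 15.1 CPM at 0 h and 4.75 to 21.2 CPM at 2 h, held no call, and 1 rose without warm 2 h replicate 2.

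Other members of the largest changes had varied annotations. An FAD dependent oxidoreductase gene, LOC_Os07g34570 (chromosome 7, 20724563 to 20726098), read 16.9, 34.6, 33.8 and 31.5 CPM at 0 h and 1368, 1974, 1932 and 1740 CPM at 2 h, without overlap, and rose by 5.95 ± 0.56 (SE, adjusted p = 1.42e-09). Its geometric mean was 9675 CPM at 6 h and 58.5 CPM at 24 h. The thiamine biosynthesis gene thiC (LOC_Os03g47610), chosen after its values were seen, read 20.2, 19.1, 14.2 and 18.7 CPM and 315, 298, 198 and 360.5 CPM and rose by 4.00 ± 0.47 (SE, adjusted p = 9e-08). It stood at 2045 CPM at 6 h and 29.5 CPM at 24 h. Among falls, LOC_Os12g08760, annotated as a carboxyvinyl-carboxyphosphonate phosphorylmutase, read 2162, 2780, 4251 and 4647 CPM and 240.3, 270.1, 283 and 240.1 CPM and changed by -3.68 ± 0.47 (SE, adjusted p = 4.58e-07). A transcriptional regulator, LOC_Os10g18370 (-5.43), the peptidase OsCttP2 (LOC_Os02g57060, -3.87), the defensin-like DEFL9 (LOC_Os06g22919, -4.44), a UDP-glucosyltransferase (LOC_Os01g49230, -3.59) and a hAT dimerisation gene (LOC_Os01g12280, -3.38) completed the 8 largest falls. In each of these 5, warm 0 h replicate 1 was the highest library. Geometric means of DEFL9 at 0, 2, 6 and 24 h were 28.4, 1.31, 0.902 and 1.01 CPM, so its level at 24 h was not that of 0 h.

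Redox genes held 16 rises (15.4%, beside 12.6% of all genes) and 16 falls (15.4%, beside 9.69%) among 104. The counts were 15 and 10 without warm 0 h replicate 1, 23 and 10 with total reads, and 10 and 5 in a fit of the 8 libraries alone. Glutaredoxin OsGrx_C15 (LOC_Os05g10930) read 2.45, 7.28, 3.81 and 2.64 CPM at 0 h and 42.1, 30.6, 52.7 and 32.1 CPM at 2 h and rose by 3.39 ± 0.32 (SE, adjusted p = 1.88e-09). Of 46 glutathione S-transferases, which attach glutathione to toxic compounds, 8 rose (17.4%) and 3 fell (6.52%). The largest change was in LOC_Os10g38470 (3.45, or 2.34 on the log2(CPM + 1) scale). Amino acid transporters, a list added later, held 9 rises (15.3%) and 15 falls (25.4%) among 59. LOC_Os04g12499 fell from 217, 168, 165 and 199 CPM to 27, 36.9, 33 and 38.2 CPM, a change of -2.47 ± 0.24 (SE, adjusted p = 2.41e-09). LOC_Os01g71720 rose from 18.3, 62.2, 82.1 and 71 CPM to 176, 263, 240.4 and 202 CPM, a rise of 4.29-fold (adjusted p = 8.04e-06). These 2 genes were picked for naming after their values were seen.

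Of 125 cytosolic ribosomal protein genes 2 rose (1.6%, beside 12.6% of all genes) and none fell (beside 9.69%). The count of rises ran from 0 without replicate 1 of either hour to 20 without warm 0 h replicate 2, with 7 under total reads. It was 4 without warm 0 h replicate 3, 5 without warm 2 h replicate 4 and 1 without warm 0 h replicate 4 or warm 2 h replicate 3. Of 42 splicing factors 4 fell (9.52%) and 1 rose (2.38%). Of 41 proteasome subunits, a list added later, 3 rose (7.32%), or 1 without warm 0 h replicate 1 and 5 without warm 0 h replicate 2. Pentatricopeptide repeat genes, which process organelle RNA and were also added later, held 56 rises (16.3%, beside 12.6% of all genes) and 11 falls (3.21%, beside 9.69%) among 343. Without warm 0 h replicate 1 the counts were 41 and 14, and 7 fell without warm 0 h replicate 3.

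Plastid transcription genes included 6 RNA polymerase sigma factors, which guide the bacterial-type polymerase of the chloroplast to its promoters. LOC_Os05g51150 rose from 11.1, 25.2, 37.5 and 34.5 CPM to 153, 226, 268 and 201 CPM, a change of 3.08 ± 0.47 (SE, adjusted p = 7.33e-06). Every 2 h library lay above every 0 h library, and LOC_Os03g16430 moved the other way (-0.95), a call lost without warm 2 h replicate 3. Reads of chloroplast-type genes annotated at nuclear loci cannot be told from those of the chloroplast genome. Of 106 such genes 24 fell (22.6%, beside 9.69% of all genes) and none rose (beside 12.6%), with a median of -0.73. The counts were 15 and 0 without warm 0 h replicate 1, 14 and 0 without warm 2 h replicate 3, and 14 and 0 with total reads. Such loci took 3.99% to 6.13% of reads at 0 h and 2.95% to 5.31% at 2 h, ranges that overlap.

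Dividing cell markers, which are histones, cyclins and replication genes, were counted to see which cells the sections held. Of 67 markers 12 fell (17.9%, beside 9.69% of all genes) and 3 rose (4.48%, beside 12.6%), with a median of -0.26. Without warm 0 h replicate 1, 17 fell and 1 rose. Rises were also 1 without warm 2 h replicate 1 or 3 and 5 without warm 0 h replicate 3. The summed level of the markers was 1910 CPM in warm 0 h replicate 1 and 4531 to 6342 CPM in its mates, against 2223 to 2997 CPM at 2 h. Histone genes LOC_Os01g64640 (-1.89) and LOC_Os06g04030 (-1.47) and cyclin gene LOC_Os04g53680 (-1.36) were among those that fell. Histone gene LOC_Os09g39730 (2.63) and cyclin gene LOC_Os05g26020 (1.72) were among those that rose. The former held 0 reads at 0 h and 1 to 9 at 2 h, the latter 0 to 2 and 2 to 9. Calls of LOC_Os01g64640 and LOC_Os05g26020 were each lost without warm 0 h replicate 4 or warm 2 h replicate 3, among other fits. The part of this marker difference in the other results was not tested.

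**Figure D5:**
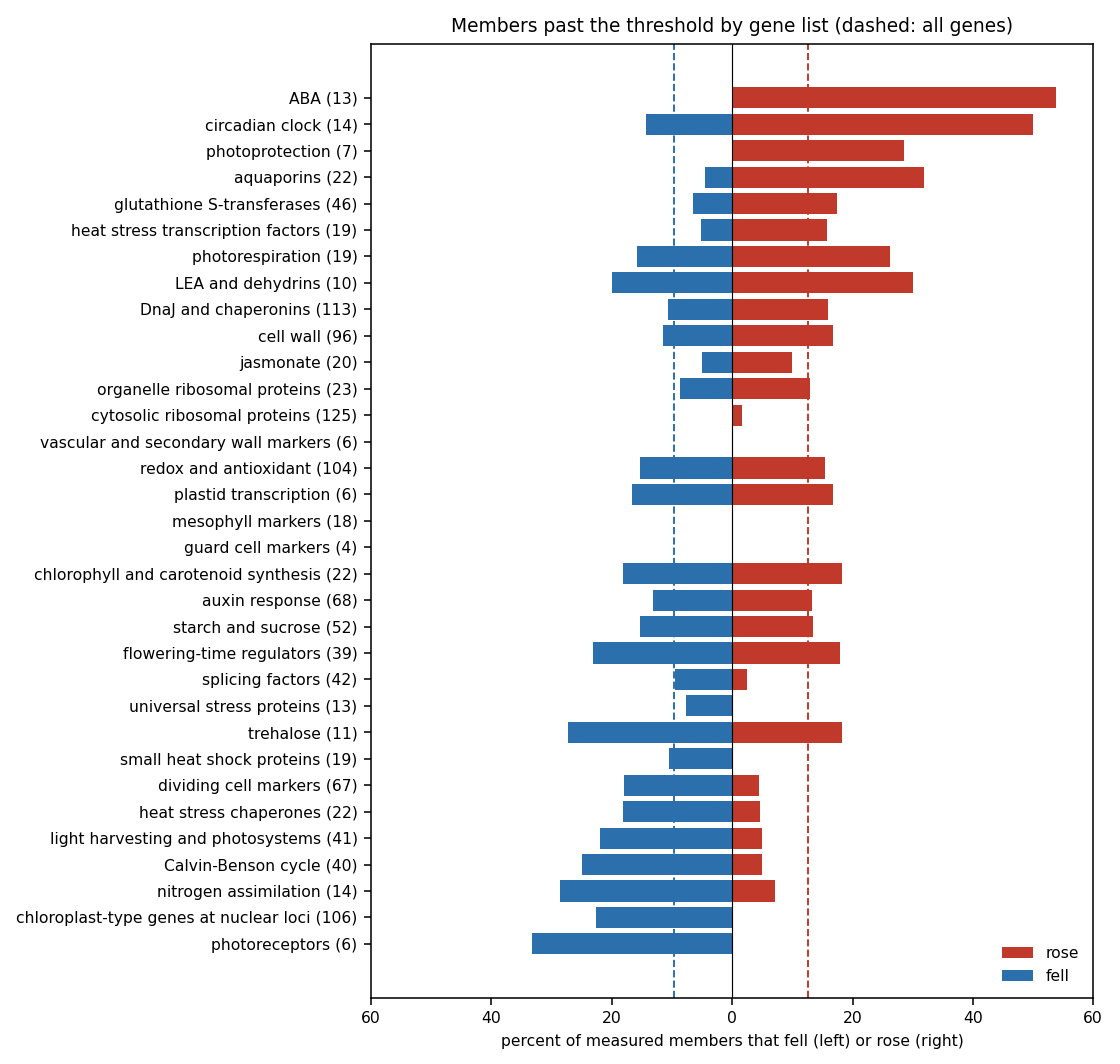
Percent of measured members that rose (red, right) or fell (blue, left) from warm 0 h to warm 2 h in 33 gene lists, with the number measured in parentheses and dashed lines at the 12.6% and 9.69% of all genes. ABA and clock lists had the highest shares of rises, and photoreceptor and nitrogen lists the highest shares of falls, with the nitrogen falls 2 of 14 when warm 0 h replicate 1, or warm 2 h replicate 2 or 3, was left out.

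The further lists are given as counts, beside 12.6% of all genes that rose and 9.69% that fell. Jasmonate genes held 2 rises and 1 fall among 20, or 5 rises without warm 0 h replicate 1 and 1 without warm 2 h replicate 3. Organelle ribosomal proteins held 3 rises and 2 falls among 23, or no rise without warm 0 h replicate 1 and 1 without warm 2 h replicate 1 or 3. LEA and dehydrin genes held 3 rises and 2 falls among 10, with 0 to 3 rises and 1 or 2 falls when 1 library was left out, and no rise without warm 0 h replicate 2 or warm 2 h replicate 1. Universal stress proteins held 1 fall among 13, or 1 rise and no fall without warm 0 h replicate 1. Among lists added later, receptor-like kinases held 43 rises and 18 falls among 314, and F-box proteins 34 and 25 among 319, with 16 falls without warm 0 h replicate 1.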

How the data were processed

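Total RNA of IR64 rice leaves was sequenced in 40 libraries, 4 in each of 10 groups. The authors deposited log2 CPM values made with voom for 19308 genes, with gene coordinates and product names, and no counts were used. Per the submitters' processing notes the tools were bcl2fastq, FastQC 0.11.2, Subread 1.5.0-p1, featureCounts 1.5.0-p1, limma 3.20.1, bedtools, edgeR 3.4.2 and SAMtools 1.1-26, and the genome was IRGSP-1.0. How strands were counted, genes filtered and libraries scaled is not given in the sources used here. Since voom adds 0.5 reads, each value could be turned back to reads: 100% were whole within 0.001.

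Warm 2 h was compared with warm 0 h in limma 3.58.1 (R 4.3.3) on the deposited log2 values, with trend and robust moderation and 10 group means over all 40 libraries, so that the groups shared one estimate of the spread. P-values were two-sided and adjusted by Benjamini-Hochberg over 19308 genes, with a threshold of 0.05, and every adjusted p in the text is of this kind. A mean with its SE is a log2 difference of 2 h minus 0 h, and CPM is 2 to the deposited value. The script was tested on simulated data that had the same spread for every gene and no library set apart. That test cannot show how the fit handles warm 0 h replicate 1 or the deposited scaling. Figures were drawn with matplotlib 3.10.9, and tables made with numpy 2.4.6 and pandas 2.3.3 in Python 3.11.15.

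Members and lists were chosen with earlier results of these data known. Of 58 gene identifiers written for 33 lists, 57 were measured, and other members were found by product name. Symbols such as LHY come from those lists and not from the table. A further 21 lists were added after values had been seen. Named were the clock genes, RCA and NIA1, the 8 largest rises and 8 largest falls (passing, with no overlap, a product name and a mean log2 CPM of at least 2) and up to 3 passing members per list with the largest change. Where a list had no passing member, the rule took the one with the smallest p. Not every gene that the rule took is described in the text, and some members with smaller changes are. Other members given with a single log2 change, and 7 genes named as such in the text, were chosen after their values were seen. No sequences are printed, since none could be paired with these loci. Counts and limits at low levels cover counting error only.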

Additional observations from a re-analysis of the deposited data

Results flagged for a closer look

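In 230 groups of 4 libraries, 1 for each of 115 named genes and each hour, 31 held a library far from the other 3. Dixon's criterion was used at its 95% critical value, comparing a library's gap to the nearest with the whole range on the log2 scale. In independent groups chance flags about 5%. The genes were named from these same values and share the same 8 libraries, so that rate is no measure for the 31. In 21 of the 31 that library was warm 0 h replicate 1. Library values given here are CPM.

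Warm 0 h replicate 1 was far below its mates for most of these genes. Among clock genes it read 1.75 for PRR1 (LOC_Os02g40510), 358 for PRR37 (LOC_Os07g49460) and 102 for PRR95 (LOC_Os09g36220). It read 0.583 for the early light-induced gene LOC_Os07g08160, 0.35 for PSBS2 (LOC_Os04g59440) and 76.6 for CP12 (LOC_Os01g19740). For LOC_Os09g33500, annotated as a transketolase, it read 34.2, and for uroporphyrinogen decarboxylase (LOC_Os03g21900) 129.8. It read 16.9 for LOC_Os07g34570, 8.52 for the aquaporin LOC_Os09g36930, 0.35 for the phosphate translocator LOC_Os08g25624 and 10.6 for the trehalose-6-phosphate synthase LOC_Os05g44210. The remaining low values were 21.6 for the guard cell potassium channel gene LOC_Os02g14840, 17.9 for the sigma factor LOC_Os03g16430 and 1.05 for the glutaredoxin OsGrx_C2.1 (LOC_Os02g40500).

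The same library was far above its mates for 6 genes. It read 36.3 for NCED4 (LOC_Os07g05940), 299 for the beta-amylase LOC_Os03g22790, 257 for the HSF-type gene LOC_Os02g32590 and 471 for the splicing factor gene LOC_Os01g48930. Values of 0.583 for the HSF-type gene LOC_Os01g53220 and 0.35 for the LEA gene LOC_Os01g50910 stood for 1 or 2 reads.

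Other libraries were far from their mates by this criterion in 10 groups. At 0 h, replicate 3 read 359.7 for LOC_Os05g31140, replicate 4 read 0.344 for the B-box gene LOC_Os09g33550, and replicate 2 read 0.499 for the thioredoxin LOC_Os02g53400 and 0.0998 for the histone gene LOC_Os09g39730. The last 3 are values of 2 reads or fewer. For LOC_Os09g39730 every 0 h library held 0 reads, so its flagged value reflects only the added 0.5 reads and the library size. At 2 h, replicate 1 read 7.36 for LOC_Os03g22790 and 10.1 for the histone H3 gene LOC_Os01g64640. Replicate 2 read 0.712 for the laccase LOC_Os01g63190, 5.62 for LOC_Os02g53400 and 0.395 for LOC_Os01g50910, and replicate 3 read 99.2 for the allene oxide cyclase LOC_Os03g32314. The cause of these values was not tested.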

How the results depend on the processing

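Over 21 alternatives, 2 of them chosen after seeing the data (total reads and the 7-library fit), no gene called in the comparison changed sign while called. Against 2437 higher and 1870 lower genes, a fit of the 8 libraries alone gave 957 and 856, a threshold of 0.01 gave 1431 and 1012, and scaling by total reads gave 3265 and 961. Leaving out 1 library at a time gave 1869 to 2629 higher genes, 1372 to 1843 lower genes and 3244 to 4472 in all. Libraries shifted to one median gave 2064 higher and 2337 lower (46.9% higher), with a median change of -0.04. Among genes that did not pass, PRR73 became -0.01 and NIA1 became 0.0 without warm 0 h replicate 1, in the full fit and in the 7-library fit. Over the 8 fits that leave out 1 library PRR73 ran from -0.01 to 0.23 and NIA1 from -1.36 to 0.0.

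With the replicate number as a block, in a fit of the 16 warm libraries, 3491 genes were called (1929 higher and 1562 lower). The labels do not say whether libraries of the same number shared a tank, and 4 pairs are too few to tell. Deviations of same-numbered libraries correlated at -0.093 to 0.269 and those of different numbers at -0.159 to 0.163. Of the 0 h libraries, 2 of 4 correlated best with their own number. Of 110 named genes that passed, 59 passed in every alternative and 51 were lost in at least 1. Under quantile normalization RCA changed by 0.00, since the gene with the most reads then takes the same value in every library. At 3609271 to 7850832 reads, genes near 3 reads per library gave sizes that depend on the offset.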

Other observations

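Further gene families, in lists added after values had been seen, are given as counts of rises and falls, beside 12.6% and 9.69% of all genes. Peptide and nitrate transporter family genes held 11 rises and 6 falls among 52, with 6 rises without warm 0 h replicate 1 and 5 without warm 2 h replicate 3. Protein phosphatases 2C, which include negative regulators of ABA signalling, held 12 and 5 among 61, with 3 falls without warm 0 h replicate 1. Translation factors held 7 and 4 among 72, with 2 rises without warm 0 h replicate 1. Aminoacyl-tRNA synthetases held 10 and 5 among 62, with 16 and 2 without warm 0 h replicate 2, and 3 falls without warm 0 h replicate 3 or 4 or warm 2 h replicate 3. Basic helix-loop-helix genes held 3 rises and 7 falls among 55, with 4 falls without warm 0 h replicate 1 or warm 2 h replicate 1 or 4. bZIP genes held 4 and 6 among 38, with 2 rises without warm 0 h replicate 3 or warm 2 h replicate 1. Homeobox genes held 6 and 3 among 44, with 3 rises without warm 2 h replicate 3 and 1 fall without replicate 1 of either hour. Cytochrome P450 genes held 18 and 15 among 145, with 11 rises without warm 0 h replicate 1 and 9 without warm 2 h replicate 1. Calcium sensors and kinases held 25 and 24 among 184, with 14 falls without warm 0 h replicate 1 and 15 without warm 2 h replicate 3 or 4. Gibberellin and brassinosteroid enzymes held 8 and 10 among 73, with 6 falls without warm 0 h replicate 1, 3 rises without warm 2 h replicate 1 and 5 without warm 0 h replicate 4 or warm 2 h replicate 3. Sugar and phosphate translocators held 2 and 2 among 11, with 1 fall without warm 0 h replicate 4. The mitochondrial respiratory chain held 1 and 2 among 37, with 4 falls without warm 0 h replicate 3 and 0 to 2 rises and 1 to 4 falls over the fits that leave out 1 library.

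A MYB gene, LOC_Os02g42850, and a second one, LOC_Os08g33050, were picked after their values were seen. LOC_Os02g42850 read 1.52, 0.299, 0.116 and 0.115 CPM at 0 h and 2.33, 1.5, 3.73 and 1.76 CPM at 2 h and changed by 2.97 ± 0.66 (SE, adjusted p = 0.00107). LOC_Os08g33050 read 90.4, 23.6, 30.1 and 23.3 CPM and 14, 15.3, 15.1 and 17.8 CPM and changed by -1.18 ± 0.28 (SE, adjusted p = 0.002), or by -0.72 without replicate 1.

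Warm 0 h replicate 1 was placed against 3293 genes called without it. In 1409 of them it lay farther from the 2 h libraries than all 3 of its mates, in 694 within their range and in 1190 nearer to the 2 h libraries than all 3. In 715 it lay at or past the nearest 2 h library. These genes were chosen because its 3 mates differed from the 2 h libraries, and no other library was placed in this way. The counts therefore cannot be read as a trait of this library.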
